A study of Mus musculus with 14 samples.

Results

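The genes described here are 34 that carry cholesterol and fatty acid synthesis: 20 enzymes of the sterol pathway, the sterol transporter Stard4, 5 regulators and 8 genes of fatty acid synthesis. They were listed by function, with earlier results of these data known. All 34 were present in both deposited count tables, of 25229 symbols for the progenitor experiment and 55353 for the postmitotic one, and all 34 passed the filter on low counts among 15295 and 17775 tested genes. RNA came from layer II/III of the mouse cerebral cortex at postnatal day 5, microdissected and dissociated with trypsin, and every animal group carried Lhx2lox/lox, a floxed form of the LIM-homeodomain gene Lhx2. In the progenitor experiment, 4 libraries labelled mutant came from Lhx2lox/lox cortices that received a Cre-EGFP plasmid by in utero electroporation at E15.5, and 4 control libraries from Lhx2lox/lox cortices that received an EGFP plasmid. In the postmitotic experiment, 3 libraries labelled mutant came from NexCre/+; Lhx2lox/lox cortices and 3 control libraries from Lhx2lox/lox cortices, and both groups received EGFP. NexCre is a Cre knock-in at Neurod6, a gene switched on in newly formed excitatory neurons, and since the controls lack it, an effect of the allele and an effect of the deletion cannot be told apart. The control plasmid of the progenitor experiment carried no Cre, so effects of Cre and of the deletion cannot be told apart there either. The series asks how the loss of Lhx2 acts on dendrite growth of these neurons. The labels name no sorting of EGFP cells and do not state the promoter of either plasmid.

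Cells build cholesterol from acetyl-CoA through mevalonate, squalene and lanosterol, and fatty acids from the same acetyl-CoA through malonyl-CoA. Both routes are switched on by the SREBP transcription factors: SCAP carries them out of the endoplasmic reticulum when sterols are low, and the INSIG proteins hold SCAP back when sterols are high. Since the blood-brain barrier keeps plasma lipoproteins out, the brain makes its own cholesterol, and neurons that extend dendrites need both lipids for new membrane.

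Total counts were 22677019 to 24002981 in the progenitor libraries labelled mutant and 24947089 to 29497595 in their controls, so every control was deeper, and the part of depth in the results was not tested. In the postmitotic experiment they were 24078099 to 25891416 in libraries labelled mutant and 21605777 to 25150658 in controls. Lhx2 was not lower in either set labelled mutant. It had 129.5 ± 11.4 CPM, the counts scaled to the library total, in progenitor libraries labelled mutant and 127.5 ± 9.10 CPM in controls (SD, n = 4 each), and 179 ± 7.41 CPM in postmitotic libraries labelled mutant against 146.6 ± 3.48 CPM in controls (SD, n = 3 each). In the postmitotic experiment it was called higher, at a log2 fold change of 0.29 ± 0.06 (SE) and a Benjamini-Hochberg adjusted p of 0.0276 by edgeR's quasi-likelihood test. That call was lost without library 2 or 3 labelled mutant or any 1 of the 3 controls, at adjusted p of 0.0626 to 0.184 by the same edgeR test, and in 3 of 10 other settings. Counts cover the whole gene, so this does not show whether the floxed part was lost, and groups are named by their labels. Y-linked counts were above 1 CPM in progenitor libraries 2, 3 and 4 labelled mutant and in 0 of 4 progenitor controls, and library 3 also had 557 CPM of Xist, the RNA of the inactive X. In the postmitotic experiment they were above 1 CPM in library 3 labelled mutant and in controls 1 and 2. The labels do not say whether the libraries of a group came from different animals. Y-linked counts were 0 CPM in progenitor library 1 labelled mutant and 172 CPM in library 4. They were 0 and 140 CPM in postmitotic libraries 1 and 3 labelled mutant, and 168 and 0.0463 CPM in postmitotic controls 1 and 3. The libraries within each of these pairs thus differ in sex and came from different animals. For the other libraries this is not known, so p-values measure the spread between libraries, which may be partly technical.

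In control libraries the 34 genes spanned a wide range of levels per kilobase of exon, in ranks that were much alike in the 2 tables apart from a few genes. The most abundant in progenitor controls were Scd2, the main stearoyl-CoA desaturase of brain, at 255 ± 14.7 CPM per kb, and Hmgcs1, which makes HMG-CoA, at 251 ± 4.61 CPM per kb (SD, n = 4), which did not differ beyond their spread. Fasn, the fatty acid synthase, followed at 88.6 ± 6.60 CPM per kb, and Acat2, the cytosolic acetoacetyl-CoA thiolase, at 76.7 ± 4.21 CPM per kb. Scd3, another desaturase gene of the same cluster on chromosome 19, was the lowest at 0.763 ± 0.0967 CPM per kb, below Ebp, the sterol isomerase, at 4.45 ± 0.346 CPM per kb. In postmitotic controls Hmgcs1, at 213 ± 9.45 CPM per kb, and Scd2, at 209 ± 4.94 CPM per kb (SD, n = 3), were again highest, and Scd3, at 0.618 ± 0.158 CPM per kb, again lowest. The levels stand side by side only, since the tables were made separately.

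Fdps, the farnesyl diphosphate synthase, ranked 7 of 34 in progenitor controls at 47.3 CPM per kb and 33 of 34 in postmitotic controls at 1.84 CPM per kb. Idi1, the isopentenyl diphosphate isomerase, ranked 25 in progenitor controls at 11.8 CPM per kb and 10 in postmitotic controls at 40.8 CPM per kb. Gm43738 holds 23.4% of the 50-base words of the exons of Fdps, and overlaps Fdps by 1124 exon bases on the same strand. Both genes also have near copies elsewhere: 12.1% of the words of Fdps lie in the pseudogene Gm3571, and 17.7% of those of Idi1 lie in Gm13502. Gm3571, with a mean of 15.7 CPM in postmitotic controls, and Gm13502, with 24.9 CPM there, are listed in the postmitotic table and not in the progenitor one, and the part of counting in these ranks was not tested. Acat2 shares 39.1% of its words with Acat3, and Acaca 29.2% with the pseudogene Gm5182, so the values of these genes are uncertain. Fdft1 shares 17.2% with Ctsb and Hmgcs1 10% with Gm48342, both on the opposite strand, and Tm7sf2 shares 9.87% with Vps51 on its own strand. Some others of the 34 genes share words too. Strandedness of counting was not stated, so the values of these genes may also be uncertain.

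**Figure D1:**
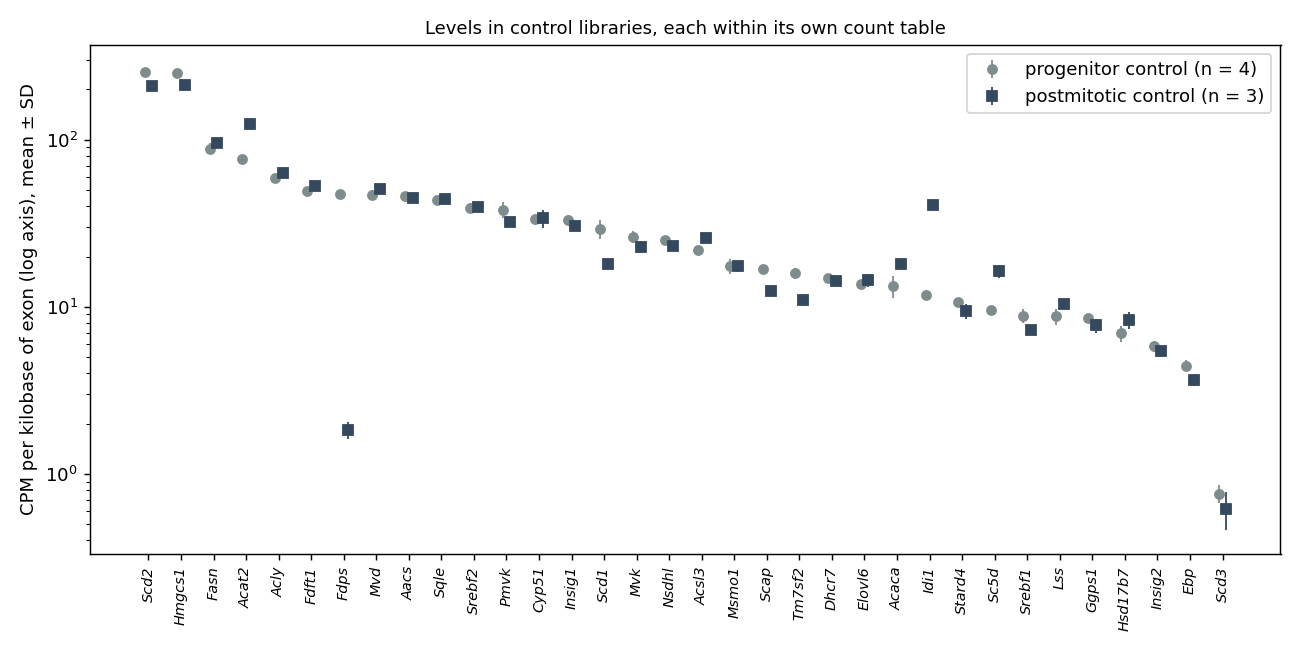
Levels of the 34 genes in control libraries, as CPM per kilobase of exon on a log axis, ordered by progenitor controls (circles, mean ± SD, n = 4) with postmitotic controls beside them (squares, mean ± SD, n = 3). Scd2 and Hmgcs1 lie highest and Scd3 lowest in both tables, while Fdps is at 47.3 in progenitor and 1.84 in postmitotic controls.

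The first comparison asks which of these genes differ after Cre-EGFP was delivered to progenitors. Of the 34 genes, Aacs was lower in the progenitor libraries labelled mutant, at 0.498 of the control level, and Stard4, Insig1, Msmo1 and Sqle were lower at between 0.746 and 0.879 of it. By edgeR's quasi-likelihood test, adjusted by Benjamini-Hochberg over all tested genes, 5 of 34 were lower at an adjusted p under 0.05, or 14.7%, beside 11.4% of all tested genes. None of the 34 was higher at that threshold, beside 12% of all tested genes, although 2 were at an unadjusted p under 0.05, 1 was by DESeq2 and 0 by limma-voom. Of the 34 log2 fold changes, 23 were negative and 11 positive, with a median of -0.09 beside 0.00 over all tested genes. The count called lower lies near the background share. RNA from tissue cannot tell fewer cells of a type from less RNA per cell.

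**Figure D2:**
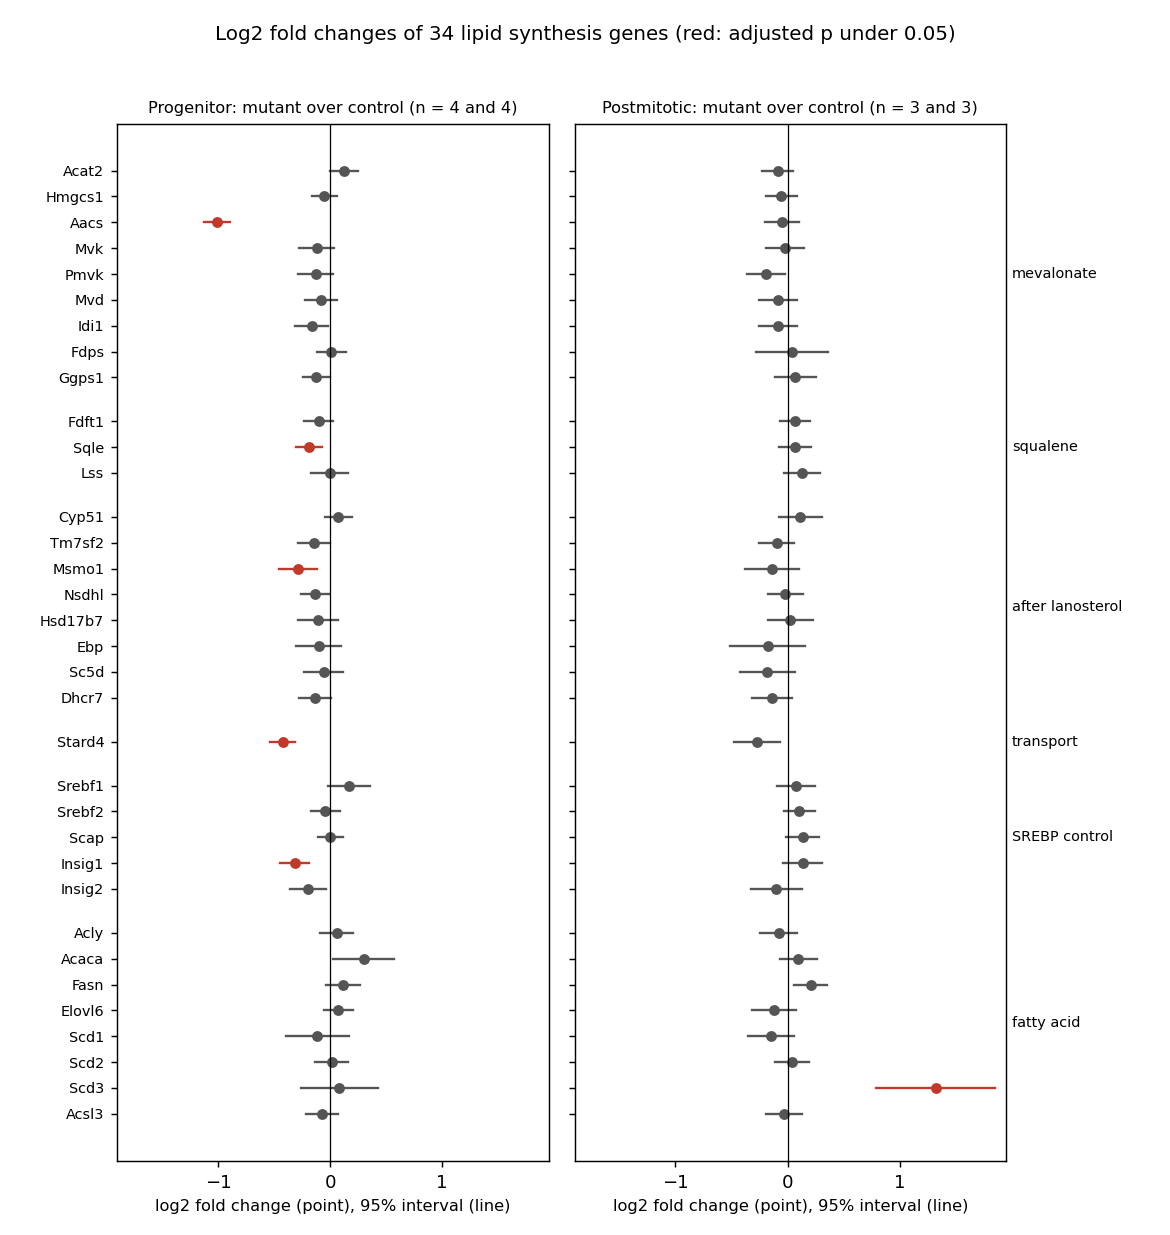
Log2 fold changes, libraries labelled mutant over control, of the 34 genes grouped by role in the progenitor (left) and postmitotic (right) experiments, with 95% intervals as lines and genes at an adjusted p under 0.05 in red. Aacs lies at -1.01 on the left and at -0.05 on the right, and Scd3 at 0.08 on the left and 1.32 on the right.

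Among the 9 genes of the mevalonate segment, Aacs was the only one called. Aacs (chromosome 5, 125475814 to 125517410, plus strand, GRCm38/mm10) encodes acetoacetyl-CoA synthetase, the cytosolic enzyme that turns the ketone body acetoacetate into acetoacetyl-CoA, a substrate for sterols and fatty acids. It had 87.9, 94.0, 90.4 and 83.3 CPM in progenitor libraries 1 to 4 labelled mutant, against 186, 179.7, 169 and 180.2 CPM in controls 1 to 4. The highest library labelled mutant thus lay far below the lowest control. This gave a log2 fold change of -1.01 ± 0.05 (SE), or 0.498 of the control level, at a Benjamini-Hochberg adjusted p of 1.28e-06 by edgeR's quasi-likelihood test. By p-value Aacs ranked 5 among all 15295 tested genes, while 158 of them had a more negative log2 fold change.

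Of the other genes of that segment, Hmgcs1, which commits acetoacetyl-CoA to the pathway, had 1049 to 1183 CPM in libraries labelled mutant and 1129 to 1178 CPM in controls, a log2 fold change of -0.05 ± 0.05 (SE). The mevalonate kinase Mvk, the phosphomevalonate kinase Pmvk, the decarboxylase Mvd, Idi1 and Ggps1, which makes geranylgeranyl diphosphate, had log2 fold changes of -0.12, -0.13, -0.08, -0.16 and -0.12. Fdps and Acat2 had 0.01 and 0.13. None of these 8 passed the threshold, by edgeR's quasi-likelihood test (Benjamini-Hochberg adjusted), where the lowest adjusted p was 0.0932, for Idi1.

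The 3 genes between farnesyl diphosphate and lanosterol had negative log2 fold changes. Sqle (chromosome 15, 59315077 to 59331192, plus strand), the squalene epoxidase and a rate-controlling step of the pathway, was called lower. It had 204, 228, 216 and 199 CPM in progenitor libraries 1 to 4 labelled mutant, against 244, 248, 234 and 238 CPM in controls 1 to 4. The groups did not overlap, but library 2 labelled mutant came within a few CPM of control 3. Its fold change on the log2 scale was -0.19 ± 0.05 (SE), at a Benjamini-Hochberg adjusted p of 0.0257 by edgeR's quasi-likelihood test. Fdft1, the squalene synthase, had -0.10 ± 0.06 (SE) and Lss, the lanosterol synthase, -0.0017 ± 0.08 (SE) on the log2 scale, neither called.

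Past lanosterol, Msmo1 was the only one of 8 enzymes called. Msmo1 (chromosome 8, 64718139 to 64733792, minus strand) encodes the sterol C4-methyl oxidase, which starts the removal of the methyl groups at C4. It had 86.6, 92.6, 92.4 and 80.5 CPM in progenitor libraries 1 to 4 labelled mutant, against 116, 104, 116 and 93.1 CPM in controls 1 to 4. Library 2 labelled mutant and control 4 almost met, with no overlap. The log2 fold change was -0.29 ± 0.08 (SE), at a Benjamini-Hochberg adjusted p of 0.0197 by edgeR's quasi-likelihood test. Nsdhl and Hsd17b7, which complete the C4 demethylation with Msmo1, had log2 fold changes of -0.14 ± 0.06 and -0.10 ± 0.08 (SE) and were not called. The C14 demethylase Cyp51 had 0.07, and Tm7sf2, Ebp, Sc5d and the last reductase Dhcr7 had -0.14, -0.10, -0.06 and -0.13. Over the 20 sterol enzymes, 3 were lower, or 15%, beside 11.4% of all tested genes, and 0 were higher, beside 12% of all tested genes, where 1 was higher at an unadjusted p under 0.05 and 0 by DESeq2 or limma-voom. Of their 20 log2 fold changes 17 were negative, and the median was -0.11.

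Stard4, which moves cholesterol between membranes in the cytosol, was lower. It had 45.2, 43.6, 43.8 and 45.0 CPM in progenitor libraries 1 to 4 labelled mutant, against 56.7, 61.8, 60.9 and 58.9 CPM in controls 1 to 4. The libraries of each group lay close together, with a clear gap between the groups. This gave a log2 fold change of -0.42 ± 0.05 (SE), at a Benjamini-Hochberg adjusted p of 0.000247 by edgeR's quasi-likelihood test.

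Among the 5 regulators, Insig1 was called. Insig1 (chromosome 5, 28071363 to 28078662, plus strand) encodes the endoplasmic reticulum protein that retains SCAP and is itself an SREBP target. It had 77.1, 83.1, 87.0 and 83.3 CPM in progenitor libraries 1 to 4 labelled mutant, against 103, 104, 110.4 and 94.0 CPM in controls 1 to 4. The groups did not overlap. Its fold change on the log2 scale was -0.32 ± 0.06 (SE), at a Benjamini-Hochberg adjusted p of 0.0035 by edgeR's quasi-likelihood test. Its relative Insig2 had 16.8 to 18.4 CPM in libraries labelled mutant and 18.9 to 22.5 CPM in controls, with no overlap, but a log2 fold change of -0.20 ± 0.07 (SE) had an adjusted p of 0.0705, by edgeR's quasi-likelihood test (Benjamini-Hochberg adjusted). The SREBP genes themselves were not called: Srebf1 had 0.17 ± 0.08, Srebf2 -0.04 ± 0.06 and Scap 0.00 ± 0.05 on the log2 scale (SE).

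The 8 fatty acid genes had none called lower or higher by edgeR's quasi-likelihood test, with 0 lower and 1 higher at an unadjusted p under 0.05, 0 and 1 by DESeq2, and 0 and 0 by limma-voom. Their median log2 fold change was 0.07, and 6 of 8 were positive. Acaca, the acetyl-CoA carboxylase that makes malonyl-CoA, had 256, 332, 276 and 259 CPM in progenitor libraries 1 to 4 labelled mutant, against 178, 258, 235 and 240.1 CPM in controls 1 to 4. Library 1 labelled mutant was a little below control 2, so the groups overlapped. The log2 fold change was 0.30 ± 0.12 (SE), at a Benjamini-Hochberg adjusted p of 0.101 by edgeR's quasi-likelihood test and 0.0461 in DESeq2. Fasn had 0.11 ± 0.07, Acly, the ATP citrate lyase, 0.06 ± 0.07, and the desaturase Scd1 -0.11 ± 0.13 on the log2 scale (SE). Elovl6, an elongase of long-chain fatty acids, had 0.07, Scd2 0.02, Scd3 0.08 and Acsl3, which activates long-chain fatty acids, -0.07.

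Across the libraries, 17, 10, 12 and 21 of the 34 genes lay below the lowest control in progenitor libraries 1 to 4 labelled mutant, and 4, 7, 6 and 2 lay above the highest control. No share over all tested genes stands beside these counts, so they do not set the 34 genes apart. Over the 34 genes, 6 had libraries labelled mutant all below the controls, 17.6%, beside 13.3% of all tested genes, and 0 had them all above, beside 13.7% of all tested genes. The 6 were the 5 called genes and Insig2. The summed level of the 20 sterol enzymes was 2919, 3089, 2959 and 2783 CPM in progenitor libraries 1 to 4 labelled mutant, against 3228, 3177, 3140.4 and 3056 CPM in controls 1 to 4. That of the 8 fatty acid genes was 3057 to 3553 CPM in libraries labelled mutant and 3027 to 3426 CPM in controls. Both sums overlapped between the groups. The 95% intervals of all 29 genes not called lay within a fold of 1.5 either way, and those of 16 of them within a fold of 1.2.

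The calls of Aacs, Stard4 and Insig1 held in each of the 9 other settings and when any 1 of the 8 libraries was left out, with log2 fold changes of -1.03 to -0.97 for Aacs, -0.44 to -0.40 for Stard4 and -0.36 to -0.28 for Insig1 over the libraries left out. Sqle lost its call without library 1, 3 or 4 labelled mutant or control 2 or 4, with adjusted p of 0.0921, 0.0527, 0.0832, 0.0671 and 0.0577, and Msmo1 without library 1 or 4 labelled mutant or control 1, with adjusted p of 0.0547, 0.0574 and 0.0508, by edgeR's quasi-likelihood test (Benjamini-Hochberg adjusted). With Y-linked CPM as a covariate, Sqle (log2 fold change -0.24 ± 0.09 (SE), adjusted p 0.133) and Msmo1 (-0.30 ± 0.13 (SE), adjusted p 0.182) were not called, by edgeR's quasi-likelihood test (Benjamini-Hochberg adjusted).

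**Figure D3:**
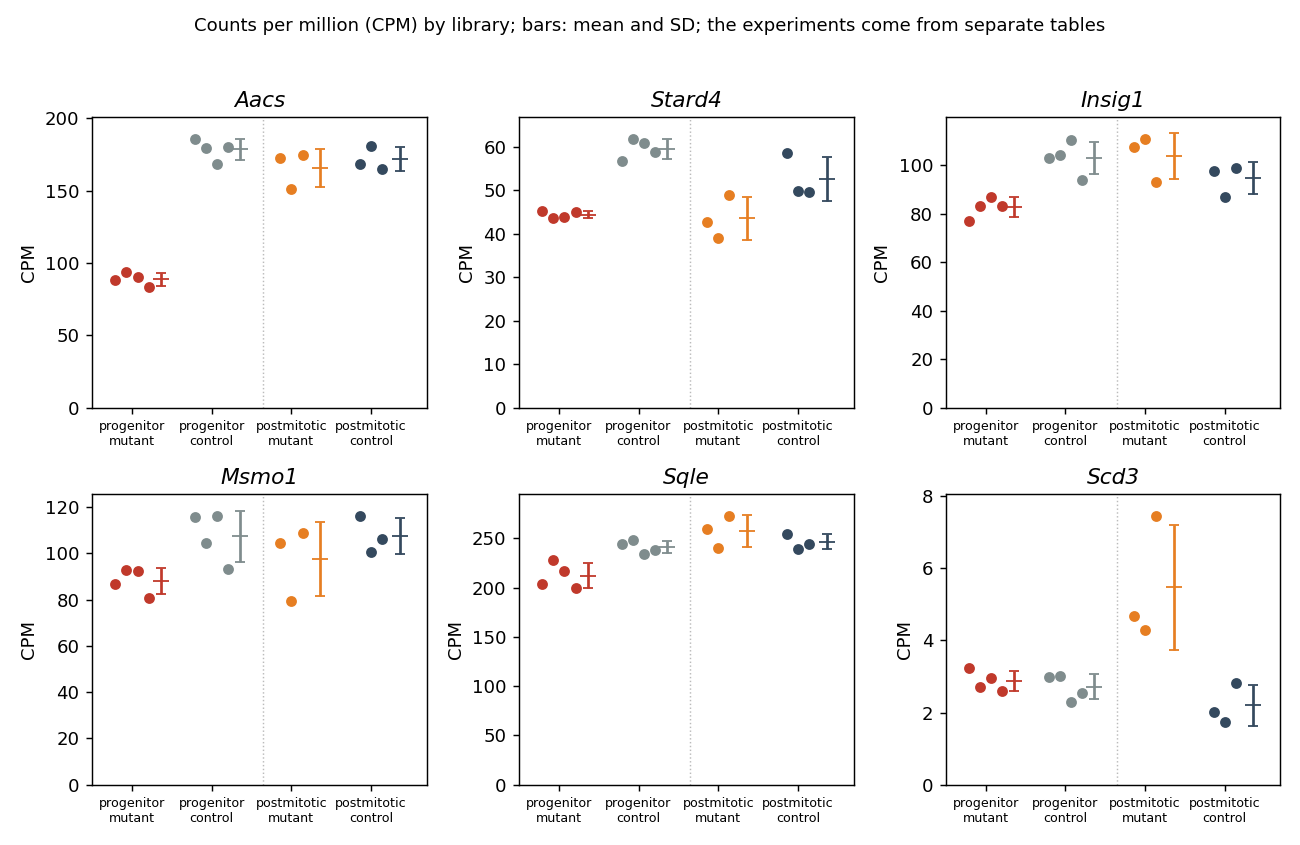
CPM of the 6 genes called in either experiment, by library (points), with the mean and SD of each group beside them. The 4 progenitor libraries labelled mutant lie between 83.3 and 94.0 CPM for Aacs, all below the controls, and the 3 postmitotic libraries labelled mutant between 4.29 and 7.44 CPM for Scd3, all above the controls.

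Some markers of other cell types were called in the same comparison, in which 11.4% of all tested genes were lower and 12% higher. Of 12 astrocyte markers, 4 were lower and 1 higher in the progenitor libraries labelled mutant, by edgeR's quasi-likelihood test (Benjamini-Hochberg adjusted). Slc1a2, the astrocyte glutamate transporter, fell by 0.62 ± 0.11 (SE), S100b fell by 0.82 ± 0.17 (SE) and Aldoc fell by 0.38 ± 0.09 (SE) on the log2 scale. Gfap was the other one called lower, and Slc4a4, a sodium bicarbonate cotransporter, was called higher at a log2 fold change of 0.52 ± 0.13 (SE). Of the 12 log2 fold changes, 6 were positive. The summed astrocyte markers were 2061 to 2602 CPM in libraries labelled mutant and 2397 to 3177 CPM in controls. Of 10 cycling progenitor markers, 5 of the 9 tested were higher, with sums of 317 to 398 CPM in libraries labelled mutant and 243 to 332 CPM in controls. Of 12 oligodendrocyte lineage markers, 11 were tested and 3 were higher, with 584 to 702 CPM in libraries labelled mutant and 554 to 648 CPM in controls. Of 12 endothelial and mural markers 3 were higher, with 406 to 594 CPM in libraries labelled mutant and 344 to 512 CPM in controls. Of 12 microglia markers 2 were lower, with 143 to 193 CPM in libraries labelled mutant and 167 to 251 CPM in controls, and of 10 interneuron markers 2 were lower, with 268 to 315 CPM in libraries labelled mutant and 283 to 366 CPM in controls. Of the 12 excitatory neuron markers, which were abundant in every library, 2 were lower and 2 higher, with 4100 to 4461 CPM in libraries labelled mutant and 4504 to 4913 CPM in controls. The labels call the material neurons, and counts of markers listed for each of these other cell types were present in every library. Such counts do not show by themselves that each cell type was present. No marker of these lists was under 0.1 CPM, and the part of any of these cells in the lower sterol genes was not tested.

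Related genes outside the 34 were called in both directions, where 11.4% of all tested genes were lower and 12% higher. Of 21 tested genes of sterol synthesis and SREBP control, 5 were lower and 1 higher in the progenitor libraries labelled mutant, and their median log2 fold change was -0.11 beside 0.00 over all genes. Fbxw7, a ubiquitin ligase subunit that marks nuclear SREBP for breakdown, fell by 0.37 ± 0.07 (SE) on the log2 scale, at a Benjamini-Hochberg adjusted p of 0.00245 by edgeR's quasi-likelihood test. Erlin1, an endoplasmic reticulum protein that binds cholesterol, fell by 0.28 ± 0.06 (SE), at a Benjamini-Hochberg adjusted p of 0.00621 by edgeR's quasi-likelihood test. Of 26 tested genes of sterol uptake, transport and turnover, 2 were lower and 4 higher, with a median of 0.02. Lrp8, a lipoprotein receptor that also receives reelin, had a log2 fold change of 0.41 ± 0.06 (SE), Gramd1a, a sterol transfer protein at membrane contacts, 0.23 ± 0.05 (SE), and Abca7, a lipid transporter, 0.27 ± 0.07 (SE), each called higher.

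Of 15 isoprenoid genes below farnesyl diphosphate, 1 was lower and 2 higher in the progenitor libraries labelled mutant, with a median log2 fold change of -0.06. The shares over all tested genes were 11.4% lower and 12% higher. Trit1, which adds isopentenyl groups to tRNA, had 0.48 ± 0.08 (SE) and Pggt1b, a subunit of geranylgeranyl transferase, 0.34 ± 0.09 (SE). Icmt, which methylates prenylated proteins, fell by 0.23 ± 0.05 (SE). Of 35 other tested fatty acid genes, 3 were lower and 4 higher, with a median of 0.01. Lpin1, a phosphatidate phosphatase, had 0.34 ± 0.07 (SE), Acsl4, which activates arachidonate, fell by 0.26 ± 0.06 (SE), and Mlxip, a glucose-responsive transcription factor, had 0.21 ± 0.05 (SE).

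The second comparison asks which of the 34 genes differ after recombination with NexCre in postmitotic neurons. Scd3 was higher in the postmitotic libraries labelled mutant, and no gene of the sterol pathway was called. By edgeR's quasi-likelihood test, adjusted in the same way, 0 of 34 genes were lower at an adjusted p under 0.05, beside 1.06% of all tested genes, although 2 were at an unadjusted p under 0.05, and DESeq2 and limma-voom called 0. Only 1 gene, 2.94%, was higher, beside 0.895% of all tested genes. Of the 34 log2 fold changes, 19 were negative and 15 positive, with a median of -0.03 beside 0.00 over all tested genes.

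Scd3 (chromosome 19, 44203269 to 44244016, plus strand) encodes a stearoyl-CoA desaturase, which puts the first double bond into saturated fatty acids. It had 4.67, 4.29 and 7.44 CPM in postmitotic libraries 1 to 3 labelled mutant, against 2.02, 1.74 and 2.82 CPM in controls 1 to 3. The groups did not overlap, and library 3 labelled mutant stood above libraries 1 and 2. This gave a log2 fold change of 1.32 ± 0.24 (SE), or 2.50 times the control level, at a Benjamini-Hochberg adjusted p of 0.0144 by edgeR's quasi-likelihood test. These values rest on 109 to 178 counts in libraries labelled mutant and 44 to 61 in controls, and 37 of 17775 tested genes had a larger log2 fold change.

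The more abundant desaturases of the same cluster were not called. Scd1 had 69.7, 76.4 and 92.0 CPM in postmitotic libraries 1 to 3 labelled mutant, against 83.4, 92.8 and 87.3 CPM in controls 1 to 3, a log2 fold change of -0.15 ± 0.09 (SE). Scd2 had 1120, 1113 and 1283 CPM in libraries 1 to 3 labelled mutant, against 1134, 1172 and 1120 CPM in controls 1 to 3, a log2 fold change of 0.04 ± 0.07 (SE). Both groups overlapped for both genes. Of the 50-base words of the exons of Scd3, 4.77% also lie in Scd1 and 3.89% in Scd2. The call of Scd3 was lost without postmitotic control 1 or 2, with adjusted p of 0.0811 and 0.0937, by edgeR's quasi-likelihood test (Benjamini-Hochberg adjusted), and the log2 fold change ranged from 1.04 to 1.54 over the libraries left out.

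By overlap alone, 4 of 34 genes had libraries labelled mutant all below the controls, 11.8%, beside 8.44% of all tested genes, and 2 had them all above, 5.88%, beside 7.98% of all tested genes. Stard4 had 42.8, 39.1 and 48.9 CPM in postmitotic libraries 1 to 3 labelled mutant, against 58.5, 49.9 and 49.5 CPM in controls 1 to 3. Library 3 labelled mutant lay just below control 3. Its fold change on the log2 scale was -0.27 ± 0.10 (SE), at a Benjamini-Hochberg adjusted p of 0.246 by edgeR's quasi-likelihood test. Pmvk, Tm7sf2 and Acat2, the other genes with lower libraries, had log2 fold changes of -0.19, -0.10 and -0.09. Fasn, the other gene beside Scd3 with higher libraries, had 1124, 1283 and 1193 CPM in libraries 1 to 3 labelled mutant, against 999.8, 1100.0 and 1021 CPM in controls 1 to 3. Its log2 fold change was 0.21 ± 0.07 (SE), at a Benjamini-Hochberg adjusted p of 0.212 by edgeR's quasi-likelihood test.

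The genes called in the progenitor experiment had log2 fold changes nearer 0 here, and none was called. Aacs had 172, 151 and 175 CPM in postmitotic libraries 1 to 3 labelled mutant, against 169, 181 and 165 CPM in controls 1 to 3. The groups overlapped, and the log2 fold change was -0.05 ± 0.07 (SE), with a 95% interval of -0.20 to 0.10. Insig1 had 107, 110.8 and 93.0 CPM in libraries 1 to 3 labelled mutant, against 97.7, 87.0 and 99.0 CPM in controls 1 to 3. These groups also overlapped, with a log2 fold change of 0.13 ± 0.08 (SE). Msmo1 and Sqle had -0.14 ± 0.11 and 0.06 ± 0.07 (SE). The 95% intervals of all 33 genes not called lay within a fold of 1.5 either way, and those of 18 of them within a fold of 1.2.

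Of the 20 sterol enzymes, 13 had negative log2 fold changes in the postmitotic experiment, with a median of -0.05, and the 3 genes between farnesyl diphosphate and lanosterol were all positive. Of the 5 regulators 4 were positive, with Srebf2 at 0.10 ± 0.06 and Scap at 0.13 ± 0.07 (SE), neither called. Of 25 tested sterol uptake, transport and turnover genes, only Osbpl1a, an oxysterol-binding protein of late endosomes, was called. It fell by 0.35 ± 0.07 on the log2 scale (SE). Osbpl1a was also called lower in the progenitor experiment, at a log2 fold change of -0.29 ± 0.09 (SE). Me1, the malic enzyme that supplies NADPH for fatty acid synthesis, was the only one of 35 other fatty acid genes called, with a log2 fold change of 0.33 ± 0.08 (SE). The shares over all tested genes of the postmitotic experiment were 1.06% lower and 0.895% higher. Of 21 other genes of sterol synthesis and SREBP control and 15 isoprenoid genes, edgeR's quasi-likelihood test called 0. At an unadjusted p under 0.05 there were 1 lower and 2 higher of the 21 and 0 of the 15, DESeq2 called 1 of the 21 lower and 0 of the 15, and limma-voom called 0 of both.

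In the postmitotic experiment, 5 of 12 excitatory neuron markers were lower and 2 higher, by edgeR's quasi-likelihood test (Benjamini-Hochberg adjusted), among them Neurod6, the locus of NexCre, which fell by 0.61 ± 0.11 on the log2 scale (SE). Summed, these markers were 4356 to 4834 CPM in libraries labelled mutant and 4540 to 4894 CPM in controls. Over all tested genes, 1.06% were lower and 0.895% higher at the same threshold. The astrocyte markers, 0 of 12 called, with 6 lower at an unadjusted p under 0.05, 1 lower by DESeq2 and 0 by limma-voom, summed to 951 to 1107 CPM in libraries labelled mutant and 1099 to 1259 CPM in controls. Of the oligodendrocyte lineage, microglia, endothelial and mural, interneuron and cycling progenitor markers, 0 were called by edgeR's quasi-likelihood test, DESeq2 or limma-voom, and 1 endothelial or mural and 1 interneuron marker were higher at an unadjusted p under 0.05. Their sums overlapped between the groups. Mobp and Eomes were under 0.1 CPM. The part of these cells in the level of Scd3 was not tested.

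The third comparison asks whether the change in the progenitor experiment differs from that in the postmitotic one. It did for 3 of the 34 genes, Aacs, Insig1 and Scd3, or 8.82%, beside 6.94% of all 15643 genes tested for it. The count lies near that background share. The difference was tested as the contrast of both log2 fold changes in 1 fit of all 14 libraries, progenitor minus postmitotic, and every gene named here was called, by edgeR's quasi-likelihood test (Benjamini-Hochberg adjusted). For Aacs it was -0.96 ± 0.09 (SE), from a progenitor log2 fold change of -1.01 and a postmitotic one of -0.05, with an adjusted p of 1.31e-05 in edgeR's quasi-likelihood test. Insig1 had log2 fold changes of -0.32 (progenitor) and 0.13 (postmitotic), and the difference was -0.45 ± 0.10 (SE), with an adjusted p of 0.0156 in edgeR's quasi-likelihood test. Scd3 had 0.08 (progenitor) and 1.32 (postmitotic), and the difference was -1.24 ± 0.30 (SE), with an adjusted p of 0.0195 in edgeR's quasi-likelihood test.

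**Figure D4:**
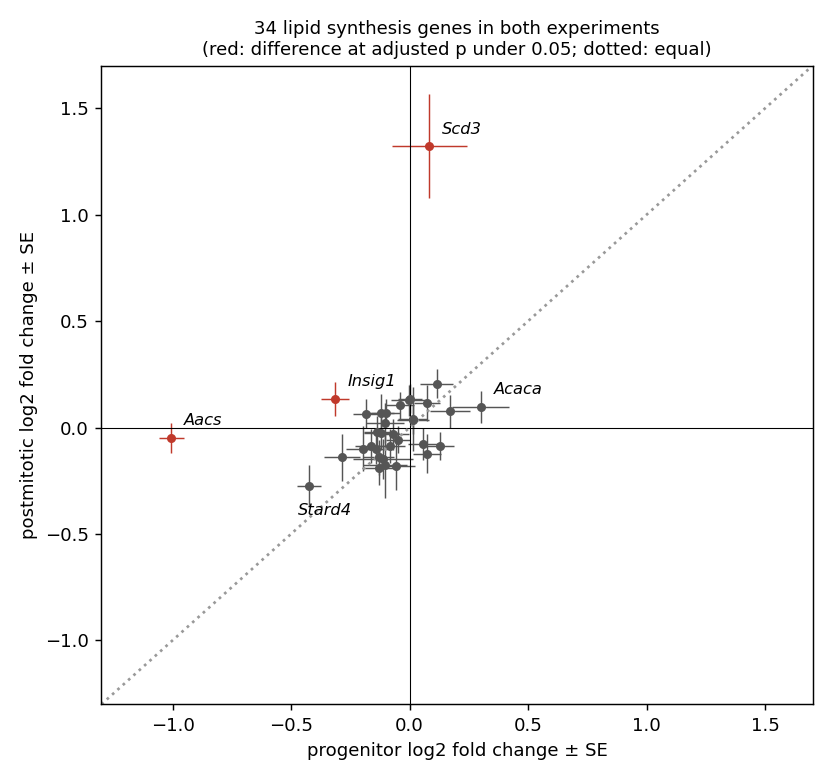
Progenitor (horizontal) against postmitotic (vertical) log2 fold changes of the 34 genes, with SE as bars, the line of equal change dotted, and genes whose difference had an adjusted p under 0.05 in red. Aacs and Insig1 lie above the line at -1.01 and -0.32 on the horizontal axis, Scd3 lies above it at 1.32 on the vertical axis, and Stard4 lies near it.

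Stard4, called in the progenitor experiment alone, had a difference of -0.15 ± 0.11 (SE), with a 95% interval of -0.38 to 0.08 and an adjusted p of 0.437, by edgeR's quasi-likelihood test (Benjamini-Hochberg adjusted), so it was not shown to differ between the experiments. Sqle had -0.25 ± 0.08 (SE) with an adjusted p of 0.0789, and Msmo1 had -0.14 ± 0.14 (SE) with an adjusted p of 0.589, by edgeR's quasi-likelihood test (Benjamini-Hochberg adjusted). The median difference over the 34 genes was -0.06 beside 0.01 over all genes tested for it. The call of Scd3 was lost without postmitotic control 1 or 2, with adjusted p of 0.0543 and 0.0578, by edgeR's quasi-likelihood test (Benjamini-Hochberg adjusted). The calls of Aacs and Insig1 held with each of the 14 libraries left out. Y-linked counts differed between the progenitor groups, and the difference was not fitted with them as a covariate. The experiments also differ in how Cre was delivered and in their separately made tables. These parts of the difference cannot be told apart.

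The deposited tables of the authors' own DESeq2 results gave the same calls apart from Acaca. In the authors' deposited table of the progenitor experiment, 5 of the 34 genes were lower and 1, Acaca, was higher, with a log2 fold change of 0.29 and an adjusted p of 0.0452 for Acaca. In the authors' deposited table of the postmitotic experiment, Scd3 was the only one of the 34 called, at 1.26 with an adjusted p of 0.0345. The sign of the log2 fold change in the authors' deposited table matched that of the edgeR fit for 33 of 34 genes in the first and for 32 of 34 in the second.

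Promoter sequence is shown for 4 of the 6 genes called in either experiment and for Hmgcs1, since SREBP targets are defined by short elements near the start. RefSeq windows on GRCm38.p6, from 250 bases before to 50 bases after an annotated start, were used for 28 of the 34 genes, and both strands were searched. The other genes are Fdft1, Fdps, Scd1, Scd2, Sqle and Stard4. The sterol regulatory element TCACNCCAC was found in 1 of the 28 genes, Hmgcs1, beside 1.44% of 27025 genes. The NF-Y box CCAAT was found in 22 of the 28, or 78.6%, beside 41.1% of the 27025 genes. The GC box GGGCGG, which binds Sp1, was found in 21 of the 28, or 75%, beside 38.2%. The 27025 genes are all those with a window, tested here or not, while all 28 passed the filter on low counts. The shares are thus from unlike sets of genes. NF-Y and Sp1 are known to act together with SREBP. The E-box CACGTG was found in 5 of the 28 genes, beside 8.09%, and TAATTA, a core that LIM-homeodomain proteins bind, in 1 of the 28, Ebp, beside 6.12%. Matches of different motifs may share bases and were counted separately, some genes have several windows, and a match is a description of the letters only. Variants of these words were not searched, so a window without a match was not shown to lack an element.

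In the sequences that follow, capitals mark TCACNCCAC and CCAAT on either strand, so that CCAAT on the opposite strand reads ATTGG. The window of Aacs, the gene with the largest decrease, is chr5:125475623-125475922 on the plus strand and holds no exact match of either. That of Insig1 is chr5:28071162-28071461 on the plus strand, with 1 CCAAT whose first base is at -216 from the start. That of Msmo1 is chr8:64733529-64733828 on the minus strand, with 3, at -160, -96 and -55. That of Hmgcs1, which was not called, is chr13:119690101-119690400 on the plus strand, with the sterol element at -137 and 4 CCAAT at -237, -176, -45 and 10. That of Scd3, the gene higher in the postmitotic experiment, is chr19:44203038-44203337 on the plus strand and holds no exact match of either.
Aacs: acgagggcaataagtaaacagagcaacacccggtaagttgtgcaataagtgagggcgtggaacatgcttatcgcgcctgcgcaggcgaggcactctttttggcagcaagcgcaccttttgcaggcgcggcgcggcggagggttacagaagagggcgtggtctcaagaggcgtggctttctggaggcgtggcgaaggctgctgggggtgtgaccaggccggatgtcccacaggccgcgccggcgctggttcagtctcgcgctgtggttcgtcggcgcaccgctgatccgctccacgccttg
Insig1: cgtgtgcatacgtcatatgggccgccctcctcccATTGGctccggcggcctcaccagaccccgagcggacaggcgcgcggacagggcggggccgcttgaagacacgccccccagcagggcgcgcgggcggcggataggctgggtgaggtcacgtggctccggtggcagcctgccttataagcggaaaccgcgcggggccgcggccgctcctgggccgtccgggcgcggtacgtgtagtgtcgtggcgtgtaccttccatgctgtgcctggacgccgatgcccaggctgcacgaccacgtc
Msmo1: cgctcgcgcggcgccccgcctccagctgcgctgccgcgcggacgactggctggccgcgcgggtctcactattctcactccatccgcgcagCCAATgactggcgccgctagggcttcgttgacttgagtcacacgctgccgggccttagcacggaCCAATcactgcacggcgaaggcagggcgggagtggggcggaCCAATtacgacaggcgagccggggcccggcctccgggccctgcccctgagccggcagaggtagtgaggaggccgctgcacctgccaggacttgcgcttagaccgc
Hmgcs1: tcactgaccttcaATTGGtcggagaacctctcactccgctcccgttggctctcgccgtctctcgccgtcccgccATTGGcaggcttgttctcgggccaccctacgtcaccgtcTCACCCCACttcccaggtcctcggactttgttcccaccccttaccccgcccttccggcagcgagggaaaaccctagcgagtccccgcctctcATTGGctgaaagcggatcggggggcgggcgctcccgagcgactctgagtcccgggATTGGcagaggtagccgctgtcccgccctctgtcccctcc
Scd3: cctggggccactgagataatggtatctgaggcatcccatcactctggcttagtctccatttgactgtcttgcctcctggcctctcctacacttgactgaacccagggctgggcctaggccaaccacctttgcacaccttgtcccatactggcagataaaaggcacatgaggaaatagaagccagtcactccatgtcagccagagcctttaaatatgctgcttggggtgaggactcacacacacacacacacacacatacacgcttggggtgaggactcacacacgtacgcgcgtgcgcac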

How the data were processed

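The authors deposited for each experiment a table of raw read counts, in whole numbers per gene symbol, made with HISAT2 and featureCounts on build mm10, per the submitters' processing notes. Tool versions, gene annotation and strandedness of counting were not stated in the labels. They also deposited DESeq2 results with log2 fold changes and adjusted p-values, per the file headers, in which a p-value of 0 can stand for a missing one.

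From the deposited counts, each experiment was fitted alone with edgeR 4.0.16 in R 4.3.3: filterByExpr, TMM, robust glmQLFit, glmQLFTest and Benjamini-Hochberg adjustment over all tested genes, with a call at an adjusted p under 0.05. Log2 fold changes set mutant labels over control, and SE and 95% intervals come from that fit. CPM use TMM-scaled totals. The difference was 1 contrast over the 24690 shared symbols after the same filter. All genes of the list are reported, with values by library for those called, and up to 3 called genes per other list with the smallest p. Some results that this rule names are left out here. Neurod6, Gfap, Slc4a4, the progenitor value of Osbpl1a and the uncalled genes given by library were chosen after their values were seen. The 34 genes and the other lists were chosen with earlier results of these data known.

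Alternatives were DESeq2 1.42.0, limma-voom (limma 3.58.1), RLE and upper-quartile factors, other filters, a replicate block, a Y-linked covariate, all libraries in 1 fit, the 4 postmitotic libraries numbered 1 and 2 alone, and each library left out. Exon lengths and shared 50-base words came from GENCODE M21 on GRCm38/mm10, and promoters from RefSeq on GRCm38.p6. The procedure was tested on simulated data. Pairs of replicates gave 6.73 to 20.7 for chi-square over its degrees of freedom, above sampling noise, so each counts as 1 library. The files held 0 columns of other samples.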

Additional observations from a re-analysis of the deposited data

Results flagged for a closer look

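Of the 34 genes, 3, or 8.82%, beside 6.94% of all genes tested, which is a near share, had a change that differed between the experiments by a direct test, by edgeR's quasi-likelihood test (Benjamini-Hochberg adjusted). The progenitor minus postmitotic log2 difference was -0.96 for Aacs, -0.45 for Insig1 and -1.24 for Scd3.

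In 3 of 68 gene and group combinations checked, all in the groups of 4, 1 library lay far from the others, and chance alone does so in about 1 of 20 groups. Pmvk had 56.2 CPM in progenitor library 1 labelled mutant, where the others had 60.5 to 61.4 CPM. Ggps1 had 38.8 CPM in progenitor control 2, where the others had 41.2 to 41.5 CPM. Dhcr7 had 78.6 CPM in progenitor control 4, where the others had 88.5 to 89.9 CPM. None of these 3 genes was called in either experiment.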

How the results depend on the processing

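The number of the 34 genes called higher in the progenitor experiment, 0, became 1, Acaca, with DESeq2, with the replicate block and with all 14 libraries in 1 fit. The number called lower, 5, became 3 with Y-linked CPM as a covariate and ranged from 3 to 5 with 1 library left out. The progenitor calls over all genes, 3577, became 948 with that covariate and ranged from 2383 to 3712 with 1 library left out. The postmitotic calls, 348, became 527 with DESeq2 and 723 with no filter, and ranged from 160 to 467 with 1 library left out, while the 1 of the 34 called higher ranged from 0 to 1. The difference calls, 1086, became 1650 with DESeq2 and 659 with the replicate block, and ranged from 598 to 1481 with 1 library left out. The cause of these moves was not tested. Same-numbered libraries did not deviate together (r from -0.489 to 0.0684), which cannot exclude that the numbers pair them. Differently numbered libraries reached an r of 0.585 in the progenitor experiment, and only postmitotic number 2 matched its own number best. The replicate block gave 3073 progenitor and 246 postmitotic calls. No called gene of the 34 changed sign in any alternative, and signs of uncalled genes were not read. In DESeq2 the difference was also called for Sqle. Scd3 rests on 44 to 178 counts per postmitotic library, which limits its precision.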
